A study of Mus musculus with 47 samples.

Results

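The genes described here are 8 regulators of the cell cycle: the mitotic kinase gene Wee1, the cyclin-dependent kinase (CDK) inhibitor genes Cdkn1a, Cdkn1b and Cdkn1c, the D cyclin genes Ccnd1, Ccnd2 and Ccnd3, and Tfdp2. They were taken by symbol from the 17097 genes that the array annotation names, and each was read from its brightest probe set by mean level. All 8 lay above the filter on low values and were among the 10258 genes tested. The cells were muscle stem cells, also called satellite cells, from the skeletal muscle of 47 female wild type C57B6/J mice aged 15 weeks, with 1 array per mouse. Of these mice, 24 had eaten a control diet and 23 a high-fat diet, freely and for 7 weeks, and no transgene or other treatment is named for either group. They were collected at zeitgeber times ZT0, ZT4, ZT8, ZT12, ZT16 and ZT20, where ZT0 is by convention lights on, with 4 mice per time and diet and 3 at high-fat ZT16. Each collection day served a single time, so time of day and day cannot be told apart within a diet, whereas the diets were compared within a day.

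As background, progress through the cell cycle depends on CDKs. The D cyclins activate CDK4 and CDK6 in G1, which release E2F factors from the retinoblastoma proteins, and Tfdp2 encodes a DP partner with which E2F proteins bind DNA. The inhibitors p21 (Cdkn1a), p27 (Cdkn1b) and p57 (Cdkn1c) hold CDK complexes back, and WEE1 phosphorylates CDK1 and so delays mitosis. Adult satellite cells are mostly quiescent, and Wee1 is a textbook example of a cell cycle gene under direct control of the circadian clock.

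Expression is given as log2 array values, which have no read depth, so that their precision rests on the number of arrays. Array medians lay between 5.86 and 5.94, each array correlated with its group mates at 0.969 to 0.987 on average, and 0.19 was the median SD of a gene within a group. Of the satellite cell markers, 10 of 10 lay above the filter, with Pax7 at 10.92 and Myf5 at 10.59, and of the immune markers 5 of 6 lay below it (Ptprc at 3.85, Itgam at 3.99) and 1 above (the macrophage marker Cd68, 8.63). The smooth muscle and pericyte markers Rgs5 (10.07), Myh11 (10.64) and Acta2 (10.93) were also well above the filter, as were the matrix genes Col3a1 (11.31), Dcn (10.21) and Col1a1 (9.31), the glial gene Mbp (9.22) and the endothelial gene Tek (9.19), while the fibro-adipogenic marker Pdgfra (4.37) was below it. In bulk RNA, fewer cells of a type and less RNA per cell cannot be told apart, and this applies to every value below.

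Promoter windows, from 250 bases before to 50 bases after the transcript start in the RefSeq table for GRCm38.p6, were on hand for 4 of the 8 genes (Cdkn1a, Cdkn1b, Ccnd3 and Tfdp2, 7 windows) and were searched on both strands for 3 short motifs tied to the clock. The E-box CACGTG, bound by CLOCK and BMAL1, was in none of the 7 windows and in 7.15% of all 32851 windows of that length. Its variant CACGTT was likewise in none, against 4.68% of all windows. AGGTCA, the core half-site of ROR and REV-ERB receptors, was in 16.3% of all windows and in 1 window each of Tfdp2 and Ccnd3. Only these windows are printed, because they hold a match, which is in capitals. The other window of each of these genes, and all windows of Cdkn1a and Cdkn1b, held none of the 3 motifs. Tfdp2 and a minor probe set of Ccnd3 had large diet differences at ZT16 (below). Cdkn1a was called at that time too, without a match. The Tfdp2 window lies at chr9:96258455-96258754 (plus strand of the gene, match on the plus strand at position -232 from the start). The Ccnd3 window lies at chr17:47504801-47505100 (plus strand of the gene, match on the minus strand at position -97).
Tfdp2: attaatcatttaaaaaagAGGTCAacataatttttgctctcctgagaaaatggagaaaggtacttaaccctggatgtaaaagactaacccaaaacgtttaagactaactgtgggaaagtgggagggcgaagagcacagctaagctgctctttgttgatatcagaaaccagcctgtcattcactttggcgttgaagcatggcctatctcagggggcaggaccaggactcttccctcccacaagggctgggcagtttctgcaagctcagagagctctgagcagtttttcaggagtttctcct
Ccnd3: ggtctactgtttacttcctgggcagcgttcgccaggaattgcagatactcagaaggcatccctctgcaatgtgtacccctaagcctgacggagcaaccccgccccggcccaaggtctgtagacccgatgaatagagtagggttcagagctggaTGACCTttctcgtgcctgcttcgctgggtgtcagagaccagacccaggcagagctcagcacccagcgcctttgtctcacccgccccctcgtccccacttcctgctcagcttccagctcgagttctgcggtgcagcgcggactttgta
A match is a description of letters and not of a bound site, and the absence of a motif in these windows says nothing of the factor. Wee1, Cdkn1c, Ccnd1 and Ccnd2 are named only.

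The 8 genes followed different daily courses, which were tested by fitting a 24 h cosine within each diet (limma, with p-values adjusted by Benjamini-Hochberg over the 10258 genes and called at 0.05). On the control diet 5 of 8 passed (Wee1, Cdkn1a, Cdkn1c, Ccnd1 and Tfdp2), against 10.5% of all genes tested, and on the high-fat diet 6 of 8 passed (the same 5 and Cdkn1b), against 16.9%. The 5 genes rhythmic on both diets compare with 4.71% of all genes. The median amplitude, that is, peak height above the fitted mean, was 0.40 on either diet, beside 0.11 and 0.12 over all genes. The daily course differed between diets for 2 genes (Cdkn1c and Ccnd1), where 2.11% of all genes differed. The diet difference changed with time for 4 of 8 (Wee1, Cdkn1c, Ccnd1 and Tfdp2), where 12.4% of genes did. Averaged over the day, only Cdkn1a among the 8 differed between diets, a count near the 11.5% of all genes that did. It was lower on the high-fat diet, a direction called for 6.8% of genes. The 8 members were chosen with earlier results of these data known. Their counts and median amplitudes, here and by time below, are thus descriptions beside the shares and no test of the set.

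By time, the diets differed for Ccnd1 at ZT0 (1 of 8, background 3.56%), for Wee1, Cdkn1a, Ccnd1 and Tfdp2 at ZT16 (4 of 8, background 13.3%, of which 6.13% higher and 7.13% lower) and for Wee1 and Cdkn1c at ZT20 (2 of 8, both lower, background 0.819%, of which 0.517% lower). No member was called by limma at ZT4, ZT8 or ZT12, where 0.312%, 1.78% and 0.858% of genes were, and 1, 3 and 1 members had an unadjusted p under 0.05. The high-fat and control mice did not overlap for 1 member at ZT0 (9.99% of all genes), 1 at ZT4 (5.38%), 3 at ZT8 (9.83%), none at ZT12 (7.47%), 5 at ZT16 (29.1%) and 1 at ZT20 (6.33%). In a chart of all members by mouse, the members without overlap are seen to be Wee1, Cdkn1a, Cdkn1b, Ccnd1 and Tfdp2 at ZT16 and Cdkn1c at ZT20.

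**Figure D1:**
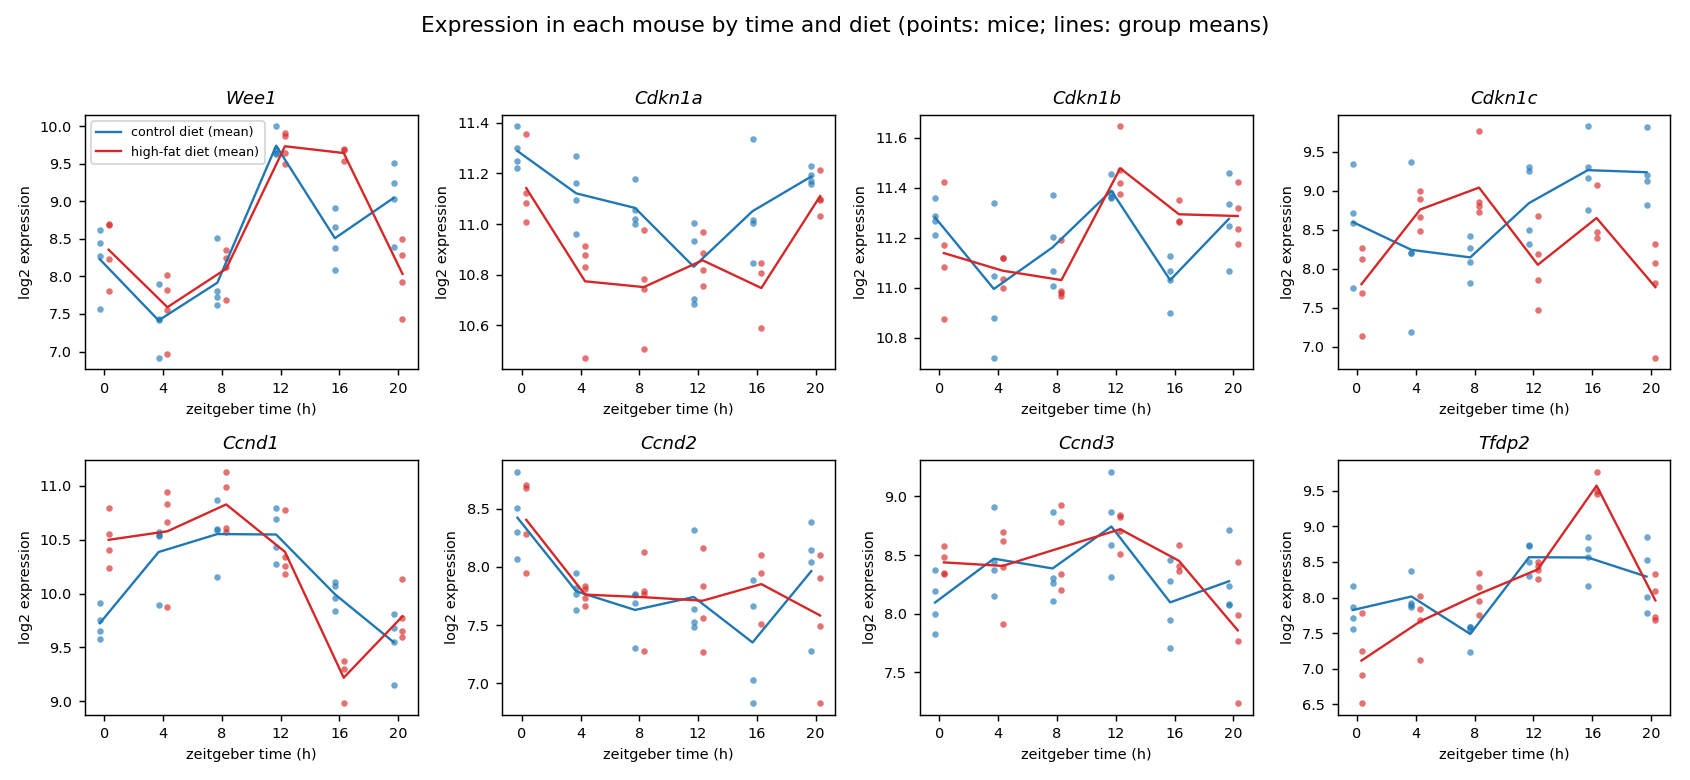
Log2 expression (vertical axis) of the 8 genes against zeitgeber time in hours (horizontal axis), with a point per mouse, a line through group means, control diet in blue and high-fat diet in red. Wee1 is highest at ZT12 on both diets (means 9.74 and 9.73), and the lines part at ZT16 (8.51 and 9.64).

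Wee1, the kinase gene that restrains entry into mitosis, had the largest control-diet amplitude of the 8 genes. Across ZT0 to ZT20 the control means were 8.23, 7.41, 7.92, 9.74, 8.51 and 9.04, and the high-fat means 8.36, 7.59, 8.10, 9.73, 9.64 and 8.03. ZT12 was the highest and ZT4 the lowest time on both diets, a range of 2.32 (5.01-fold) and 2.14 (4.41-fold). The highest and lowest times did not overlap, which holds for 52.6% of all genes under control and 59.4% under high-fat feeding and for 7 of the 8 members under each.

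At ZT12 the 4 control mice had Wee1 values of 10.00, 9.63, 9.69 and 9.64, and the 4 high-fat mice 9.50, 9.87, 9.64 and 9.91. At ZT4 the control mice had 7.43, 7.90, 6.92 and 7.41 and the high-fat mice 6.97, 7.55, 8.03 and 7.81. At both of these times the diets overlapped, and every mouse at ZT12 was above every mouse at ZT4. At ZT0 the control values were 8.45, 7.57, 8.62 and 8.27, and the high-fat values 8.23, 7.81, 8.70 and 8.68. At ZT8 they were 7.72, 8.51, 7.62 and 7.81 on the control diet and 7.69, 8.25, 8.35 and 8.12 on the high-fat diet. The diets overlapped here too, and from ZT0 to ZT12 the differences ran only from -0.01 ± 0.26 (SE from limma, as for all later differences) to 0.19 ± 0.26.

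The diets parted at ZT16, when the control mice had Wee1 values of 8.91, 8.08, 8.66 and 8.38, and the 3 high-fat mice 9.54, 9.68 and 9.70. All 3 high-fat mice were above all 4 control mice, by 1.13 ± 0.28 (2.19-fold, 95% interval 0.58 to 1.69, adjusted p = 0.00475). At ZT20 the order was turned, with 9.51, 9.02, 9.25 and 8.40 in control and 8.50, 8.29, 7.43 and 7.92 in high-fat mice. The highest high-fat mouse was above the lowest control mouse, and the mean was lower by 1.01 (difference -1.01 ± 0.26, 95% interval -1.53 to -0.49, adjusted p = 0.0429). This ZT20 call was lost without any of 5 of the 8 mice of that time (control replicates 1, 2 and 3 and high-fat replicates 3 and 4, adjusted p from 0.0893 to 0.167), and missed the threshold without a filter on low values (0.0596), with cyclic loess (0.0515) and with median centring (0.0512), whereas the ZT16 call held without each mouse in turn (adjusted p up to 0.0292). The change of the diet difference with time was called (interaction adjusted p = 0.0062), but without the ZT16 mice it was not (adjusted p = 0.122).

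In order of level, control Wee1 at ZT12 stood above ZT20 without overlap, and ZT20, ZT16 and ZT0 overlapped as neighbours in that order, as did ZT0 with ZT8 and ZT8 with ZT4. On the high-fat diet ZT12 and ZT16 overlapped and stood above all other times, and ZT0, ZT8, ZT20 and ZT4 overlapped as neighbours. In control mice the fitted amplitude was 0.81 ± 0.17 with a peak at 15.5 ± 0.786 h (adjusted p = 0.00278), and in mice fed the high-fat diet it was 0.98 ± 0.17 with a peak at 14.3 ± 0.657 h (adjusted p = 0.000333). The 2 fitted rhythms were not called different (adjusted p = 0.55). Wee1 kept its rhythm call on both diets with collection day as a random block (adjusted p = 0.0289 and 0.00538). For comparison, the clock gene Per2 had fitted peaks of 15.7 h and 15.9 h, and Dbp, a direct clock output, of 10.6 h and 10.2 h.

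The second probe set of Wee1 gave the same picture. It correlated with the first at 0.946 over the 47 arrays, with amplitudes of 0.70 ± 0.12 and 0.93 ± 0.13. In a fit over all named probe sets its diet difference was 0.87 ± 0.19 at ZT16 (adjusted p = 0.00262) and -0.84 ± 0.18 at ZT20 (adjusted p = 0.0173), beside adjusted p = 0.00693 and 0.0556 for the first probe set in that fit. Over the 12 group means, the genes whose course was most like that of Wee1 were Klf13 (Pearson r = 0.916), Fam76a (0.908), 9330159F19Rik (0.905), 1500004A13Rik (0.892) and Tsc22d3 (0.883). These are descriptions over 12 points that share the same arrays. Tsc22d3, a gene known for its induction by glucocorticoids, was higher on the high-fat diet at ZT16 by 1.07 ± 0.19 (adjusted p = 0.000199) and lower at ZT20 (difference -1.22 ± 0.18, adjusted p = 0.000344). The period gene Per1 had the same signs, with 0.58 ± 0.15 at ZT16 (adjusted p = 0.00658) and -0.54 ± 0.14 at ZT20 (adjusted p = 0.0429). Klf13, a zinc finger transcription factor, was higher at ZT16 by 0.73 ± 0.16 (adjusted p = 0.0015) and had a difference of -0.28 ± 0.14 at ZT20 that did not pass (adjusted p = 0.393).

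**Figure D2:**
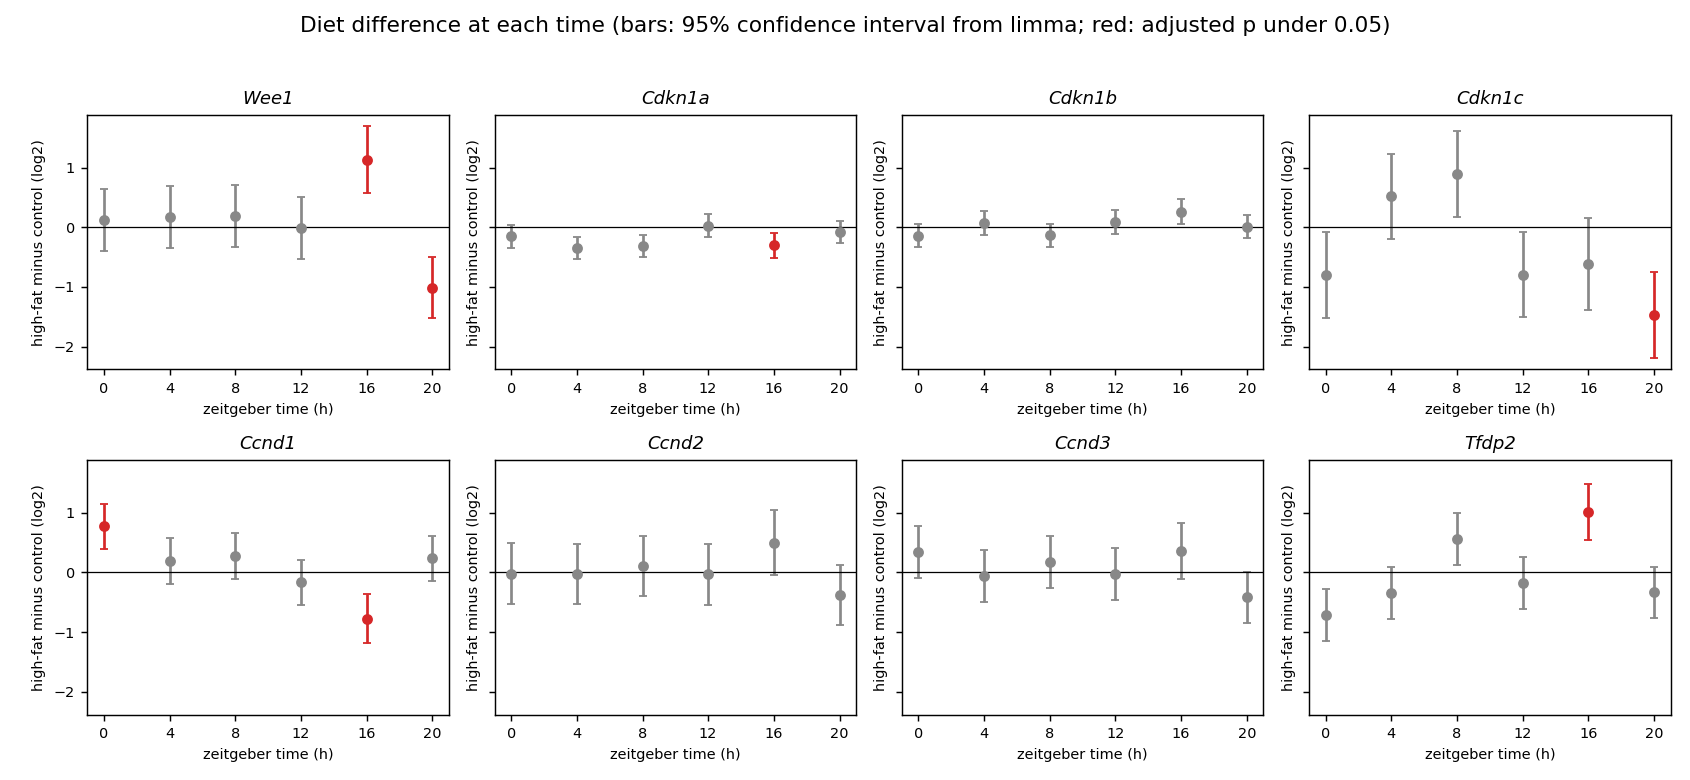
High-fat minus control difference in log2 expression (vertical axis) at each zeitgeber time in hours (horizontal axis) for the 8 genes, with 95% confidence intervals from limma and red where the adjusted p is under 0.05. Wee1 is 1.13 higher at ZT16 and 1.01 lower at ZT20, Tfdp2 is 1.01 higher at ZT16, and Ccnd1 is 0.78 higher at ZT0 and 0.78 lower at ZT16.

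Of the CDK inhibitors, Cdkn1a, which encodes p21, was lower on the high-fat diet across the day, by a mean of 0.19 on the log2 scale (difference -0.19 ± 0.04, 0.874 of the control level, 95% interval -0.27 to -0.11, adjusted p = 0.00121, 23 against 24 mice). The control means from ZT0 to ZT20 were 11.29, 11.12, 11.06, 10.83, 11.05 and 11.19. The high-fat means were 11.14, 10.77, 10.75, 10.86, 10.75 and 11.11. High-fat means were below control means at 5 of the 6 times, all but ZT12, and the interaction of diet with time was not called (adjusted p = 0.157).

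At ZT4 the control mice had Cdkn1a values of 11.09, 11.16, 11.27 and 10.96, and the high-fat mice 10.88, 10.83, 10.47 and 10.91. At ZT8 the control values were 11.06, 11.00, 11.18 and 11.02, and the high-fat values 10.97, 10.78, 10.51 and 10.74. At ZT16 they were 11.01, 10.85, 11.33 and 11.02 and, in the 3 high-fat mice, 10.59, 10.81 and 10.85. At these 3 times every high-fat mouse was below every control mouse. Only the ZT16 difference passed the test (-0.30 ± 0.10, adjusted p = 0.0422), while those at ZT4 (-0.35 ± 0.09, adjusted p = 0.0854) and ZT8 (-0.31 ± 0.09, adjusted p = 0.0693) did not. The ZT16 call failed without any of 6 of its 7 mice (all but control replicate 2, adjusted p from 0.0522 to 0.232), without a filter on low values (0.0522) and without an intensity trend (0.055), and the ZT8 difference passed without high-fat replicate 1 (adjusted p = 0.0352). The average over the day held without each mouse (adjusted p up to 0.00278) and without the ZT16 mice (-0.17, adjusted p = 0.00944). In the same average over the day, marker genes of other cells were called too, where 11.5% of all genes were. Of the Schwann list both measured genes, Mbp and Sox10, were higher on the high-fat diet (2 of 4 listed measured, summed level from 8.85 to 9.94 in control and from 9.07 to 10.89 in high-fat mice). Col3a1 was higher (1 of 3 fibro-adipogenic genes tested, summed level from 11.66 to 12.76 and from 11.87 to 12.98), and so was Actn3 (1 of 5 mature myofibre genes tested, from 8.68 to 9.87 and from 8.91 to 9.43). Cd68 was lower (the 1 immune gene tested, summed level from 8.66 to 9.74 and from 8.28 to 9.52), as was Myod1 (1 of 3 committed myoblast genes tested, from 11.23 to 11.96 and from 10.94 to 11.80). The satellite cell genes Pax7, Vcam1 and Calcr were higher (3 of 10, summed level from 13.71 to 13.97 and from 13.81 to 14.08). The part of these cells in the lower Cdkn1a was not tested.

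Cdkn1a was also rhythmic on both diets, with small amplitudes of 0.19 ± 0.04 and 0.19 ± 0.04 and peaks at 23.7 ± 0.888 h in control (adjusted p = 0.00952) and 21.6 ± 0.921 h in high-fat mice (adjusted p = 0.00612). With collection day as a random block neither call held (adjusted p = 0.12 and 0.0764). Its second probe set had an average diet difference of -0.18 ± 0.06 (adjusted p = 0.0399) but only -0.06 ± 0.14 at ZT16 (adjusted p = 0.832), so the ZT16 call rests on the first probe set. The control rhythm of the second probe set did not pass (0.15 ± 0.07, adjusted p = 0.321), whereas its high-fat rhythm did (0.24 ± 0.07, adjusted p = 0.0455). With the mean of all probe sets the control rhythm missed the threshold (adjusted p = 0.054). The genes most like Cdkn1a over the 12 group means were Fam83g (r = 0.872), Nipbl (0.865), which encodes the cohesin loader, and Polr1d (0.856), a subunit of RNA polymerases I and III.

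Cdkn1b, which encodes p27, varied little. Its control means ran from 10.99 at ZT4 to 11.39 at ZT12, and its high-fat means from 11.03 at ZT8 to 11.48 at ZT12, a range of 1.31-fold and 1.36-fold. The cosine passed on the high-fat diet only, with an amplitude of 0.19 ± 0.05 and a peak at 15.5 ± 1.04 h (adjusted p = 0.0309), against 0.05 ± 0.05 on the control diet (adjusted p = 0.78). The control course was not flat by another test, since an F test over the 6 times, with no cosine shape assumed, passed for Cdkn1b on that diet (adjusted p = 0.00576). The difference between these rhythms was not called (adjusted p = 0.404). The high-fat call failed without high-fat ZT12 replicate 4 (adjusted p = 0.0562), without high-fat ZT4 replicate 2 (adjusted p = 0.0521) and with day as a random block (adjusted p = 0.151). At ZT16 the control values of Cdkn1b were 11.13, 11.07, 11.03 and 10.90, and the high-fat values 11.26, 11.27 and 11.35. The groups did not overlap, yet the difference of 0.26 ± 0.10 did not pass (adjusted p = 0.0826), and with array weights it did (0.0139). The second probe set of Cdkn1b, which correlated with the first at 0.48, had -0.03 ± 0.17 at ZT16 (adjusted p = 0.937 in the fit over all named probe sets) and amplitudes of 0.16 ± 0.07 (0.279) and 0.28 ± 0.07 (0.0208). Its course over the 12 group means was closest to those of Efna2 (r = 0.927), Btbd19 (0.923) and the kinase gene Pim3 (0.901), and among the members to that of Wee1 (0.785).

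Cdkn1c, which encodes p57, had daily courses that differed between the 2 diets. It has only 1 probe set, so no other set could be compared. Control means from ZT0 to ZT20 were 8.60, 8.24, 8.14, 8.84, 9.26 and 9.24. High-fat means were 7.80, 8.76, 9.04, 8.05, 8.65 and 7.76. The control course was lowest at ZT8, the time when the high-fat course was highest, and the high-fat course was lowest at ZT20, when the control mean was near its highest. At ZT16, the highest control time, the high-fat mean was also above its neighbours at ZT12 and ZT20. Control mice had a fitted peak of 17.6 ± 0.953 h (amplitude 0.61 ± 0.15, adjusted p = 0.0177), and high-fat mice one of 7.98 ± 1.19 h (0.51 ± 0.16, adjusted p = 0.0475). The rhythms differed (adjusted p = 0.0198), and this held without each mouse in turn (adjusted p up to 0.0373), without the ZT16 mice (0.0416) and with the replicate block. The diet-by-time interaction was also called (adjusted p = 0.00738, and 0.0254 without the ZT16 mice).

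At ZT8 the control mice had Cdkn1c values of 8.26, 8.42, 8.08 and 7.82, and the high-fat mice 9.77, 8.81, 8.72 and 8.86. At ZT20 the control mice had 8.81, 9.20, 9.81 and 9.12, and the high-fat mice 7.81, 8.07, 6.86 and 8.32. Neither pair of groups overlapped, high-fat mice being the higher at ZT8 and the lower at ZT20. The ZT20 difference of -1.47 ± 0.35 (0.36 of the control level, 95% interval -2.19 to -0.76) passed (adjusted p = 0.0328), and the ZT8 difference of 0.89 ± 0.35 did not (adjusted p = 0.171). The ZT20 call failed without control ZT20 replicate 2 (adjusted p = 0.0711) or 3 (0.122) and without high-fat ZT20 replicate 1 (0.0546) or 3 (0.147). Spread within groups was wide, as at control ZT4, where the values were 7.18, 8.20, 8.21 and 9.37. The rhythm call on the control diet missed the threshold without control ZT4 replicate 1 (adjusted p = 0.0506), that on the high-fat diet without any of 29 of the 47 mice (adjusted p up to 0.13 without high-fat ZT8 replicate 1 and 0.137 without high-fat ZT20 replicate 3), and both with day as a random block (0.175 and 0.25). The high-fat call was also lost without a filter (0.0654), with cyclic loess (0.0631), with median centring (0.065) and with array weights (0.0538). Averaged over the day, the difference of -0.38 ± 0.15 did not pass (adjusted p = 0.086), and it passed without control ZT0 replicate 1 (0.0476) or control ZT4 replicate 1 (0.0362).

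The gene whose 12 group means were most like those of Cdkn1c was Myog (r = 0.901), which encodes myogenin, the factor of terminal muscle differentiation, followed by Mrps9 (0.892) and Uvrag (0.870). The likeness was then measured on values the choice had not used, the deviations of the 47 mice from their group means, for the nearest gene of each of the 8 members (8 tests, two-sided permutation of mice within groups). For Cdkn1c and Myog Pearson's r was 0.89 and Spearman's rho 0.88, each with a permutation p of 1e-05, the smallest that 100000 permutations can give (adjusted p = 8e-05), and r was 0.87 without the 2 mice farthest from the median. Since deviations are taken within a time and diet, this relation lies within collection days. Of the other 7 pairs, Ccnd1 and Dctd reached r = 0.43 (permutation p = 0.0106, adjusted p = 0.0424) with rho = 0.40 (permutation p = 0.017, adjusted p = 0.068) and r = 0.35 without the 2 farthest mice. The remaining 6 pairs did not pass in the permutation test (adjusted p from 0.123 to 0.883).

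Within groups Cdkn1c also went with other genes of the committed myoblast list (4 permutation tests, Myog included), with r = 0.78 for Mymk, the myomaker gene of myoblast fusion (rho = 0.71, adjusted p = 2e-05 for both), and r = 0.53 for Myh3, embryonic myosin (rho = 0.48, adjusted p = 0.000667 and 0.00336). Without the 2 farthest mice these were 0.74 and 0.53. For Myod1, the determination factor, r was 0.18 and rho 0.10 (permutation p = 0.291 and 0.561), and r was 0.21 without the 2 farthest mice. Of this list 4 of 4 genes were measured and 3 lay above the filter. Myod1 was at a mean of 11.41, Myog at 6.38, Mymk at 6.17 and Myh3, at 5.53, below the filter of 5.80. The list's mean level was 7.74 in control and 6.90 in high-fat mice at ZT20, and 7.03 and 7.54 at ZT8, higher and lower as Cdkn1c was. Its summed level, on the log2 scale, ran from 11.34 to 11.60 in control and from 11.22 to 11.67 in high-fat mice at ZT20, and from 11.82 to 11.91 and from 11.48 to 11.80 at ZT8. This sum, which Myod1 dominates, overlapped at ZT20 and did not go with Cdkn1c at ZT8, and no gene of the list passed at either time. Myog itself had a diet difference of -1.78 ± 0.51 at ZT20 that did not pass (adjusted p = 0.0822), while its interaction did (adjusted p = 0.0408). The part of committed cells in the Cdkn1c values was not tested.

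**Figure D3:**
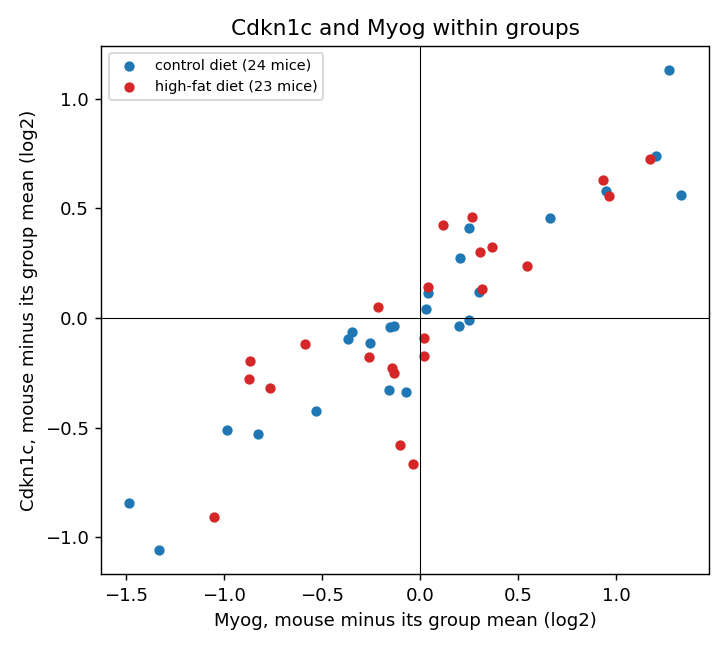
Deviation of each mouse from the mean of its time and diet in log2 expression, Myog on the horizontal and Cdkn1c on the vertical axis, with 24 control mice in blue and 23 high-fat mice in red. The points lie along a rising line (r = 0.89 over 47 mice), and mice of both diets lie along it.

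Among the D cyclins, Ccnd1 had the clearest rhythm, with a fitted peak by day where that of Wee1 lay by night. Control means from ZT0 to ZT20 were 9.72, 10.39, 10.55, 10.55, 9.99 and 9.55. High-fat means were 10.50, 10.58, 10.83, 10.39, 9.22 and 9.79. ZT8 was the highest time on both diets, and the lowest was ZT20 on the control diet and ZT16 on the high-fat diet, a range of 2.01-fold and 3.05-fold. Control mice had a fitted peak of 8.87 ± 0.599 h (amplitude 0.55 ± 0.09, adjusted p = 6.87e-05), and high-fat mice an earlier fitted value of 5.58 ± 0.499 h (0.67 ± 0.09, adjusted p = 3.97e-06). Both calls held with day as a random block (adjusted p = 0.0055 and 0.000466). The rhythms differed between diets (adjusted p = 0.0336), a call that was lost without control ZT16 replicate 2, control ZT4 replicate 3 or high-fat ZT16 replicate 1 or 3 (adjusted p from 0.0508 to 0.0705), with the replicate block (0.0502), with time as a cosine in both diets (0.0799) and without the ZT16 mice (0.337).

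At ZT0 the control mice had Ccnd1 values of 9.65, 9.58, 9.91 and 9.75, and the high-fat mice 10.41, 10.55, 10.80 and 10.24. Every high-fat mouse was above every control mouse, by 0.78 ± 0.19 (1.71-fold, 95% interval 0.40 to 1.15, adjusted p = 0.0163), a direction called for 1.33% of all genes at that time. At ZT16 the control values were 10.07, 10.11, 9.96 and 9.84, and the 3 high-fat values 8.98, 9.37 and 9.30. There every high-fat mouse was below every control mouse, by a difference of -0.78 ± 0.20 (0.584 of the control level, 95% interval -1.18 to -0.37, adjusted p = 0.00797). The ZT0 call held without each mouse (adjusted p up to 0.0499), and the ZT16 call was lost without high-fat ZT16 replicate 1 (adjusted p = 0.0657). At ZT20 the values overlapped, with 9.68, 9.55, 9.15 and 9.81 in control and 10.14, 9.59, 9.65 and 9.77 in high-fat mice, and the difference of 0.24 ± 0.19 did not pass (adjusted p = 0.61). The interaction was called (adjusted p = 0.00453) and was not without the ZT16 mice (0.198).

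The other 2 probe sets of Ccnd1 correlated with the first at 0.876 and 0.963, and their rhythms passed on both diets in the fit over all named probe sets (adjusted p from 3.72e-05 to 0.00111). In that fit their rhythm difference had adjusted p = 0.325 and 0.0339, and their interaction 0.481 and 0.0202. The first probe set had 0.049 and 0.00731, so only 1 of the other 2 passed in these tests. At ZT16 the diet differences of the other 2 were -0.26 ± 0.24 (adjusted p = 0.537) and -0.93 ± 0.28 (adjusted p = 0.0284). At ZT0 they were 0.38 ± 0.23 (adjusted p = 0.429) and 0.89 ± 0.26 (adjusted p = 0.0645), so that the ZT0 call rests on the first probe set. The genes most like Ccnd1 over the 12 group means were Dctd, a deaminase that supplies dUMP for thymidylate synthesis (r = 0.951), Capn6 (0.934) and Apba2 (0.920). Dctd was also lower on the high-fat diet at ZT16 (difference -0.73 ± 0.20, adjusted p = 0.0119), as was Capn6 (-0.75 ± 0.23, adjusted p = 0.0271). Cdk4, the kinase that D cyclins activate, was rhythmic with peaks close to those of Ccnd1, at 9.09 h in control (amplitude 0.24 ± 0.06, adjusted p = 0.0219) and 6.80 h in high-fat mice (0.29 ± 0.06, adjusted p = 0.00389). Cdk6, the other partner kinase, passed on the high-fat diet with a peak at 8.11 h (amplitude 0.48 ± 0.08, adjusted p = 0.000263).

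Ccnd2 was highest at ZT0 on both diets, with control means from ZT0 to ZT20 of 8.42, 7.79, 7.63, 7.74, 7.35 and 7.96 and high-fat means of 8.41, 7.76, 7.74, 7.71, 7.85 and 7.58. At ZT0 the control values were 8.30, 8.51, 8.06 and 8.82, and the high-fat values 8.71, 7.95, 8.28 and 8.68. The diets overlapped here, and the difference was -0.02 ± 0.25 (95% interval -0.52 to 0.49). Neither rhythm passed (control amplitude 0.36 ± 0.12, adjusted p = 0.0854, and high-fat 0.20 ± 0.12, adjusted p = 0.419), and the control course passed without control ZT12 replicate 1 (adjusted p = 0.0258), with array weights (0.0452) and in the F test over the 6 times (0.0172). For this probe set no time gave a called diet difference, and the largest were 0.50 ± 0.27 at ZT16 (adjusted p = 0.219) and -0.38 ± 0.25 at ZT20 (adjusted p = 0.538). Its 6 probe sets had correlations with the highest-mean set from 0.459 to 0.663, and high-fat amplitudes from 0.08 to 0.62, so the gene's course depends on the probe set read. A dimmer set (mean 6.05) was lower on the high-fat diet at ZT16 (-1.06 ± 0.31, adjusted p = 0.0234), the opposite sign, and rhythmic on that diet (0.62 ± 0.14, adjusted p = 0.00865). Stk38l, a kinase gene of the NDR family, was most like Ccnd2 over the 12 group means (r = 0.956), followed by Csnk1a1 (0.876) and Rictor (0.873), a subunit of the mTORC2 complex.

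Ccnd3 was highest at ZT12 on both diets, with means of 8.74 and 8.72, and lowest at ZT0 in control (8.10) and ZT20 in high-fat mice (7.86). Its amplitudes of 0.22 ± 0.10 and 0.29 ± 0.10 did not pass (adjusted p = 0.247 and 0.0706), and the high-fat rhythm passed without high-fat ZT0 replicate 4 (adjusted p = 0.0498), ZT4 replicate 1 (0.0482) or ZT8 replicate 4 (0.0397), and the F test over the 6 times passed there too (0.0249). At ZT16 the control values were 7.71, 8.45, 7.94 and 8.28, and the high-fat values 8.36, 8.41 and 8.58. These overlapped, with a difference of 0.35 ± 0.23 (adjusted p = 0.327). A second, dimmer probe set of Ccnd3 (mean 5.92) correlated with the first at only 0.198. It was higher on the high-fat diet at ZT16 by 1.37 ± 0.24 (adjusted p = 0.000239) and rhythmic on that diet (amplitude 0.65 ± 0.11, peak 14.5 h, adjusted p = 0.000369). The probe sets of Ccnd3 thus disagreed, and with the mean of its probe sets the ZT16 difference was 0.86 (adjusted p = 0.000211). The genes most like the first probe set were Antxr2 (r = 0.880), Smc6 (0.877), of the SMC5/6 complex, and Nfib (0.859).

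**Figure D4:**
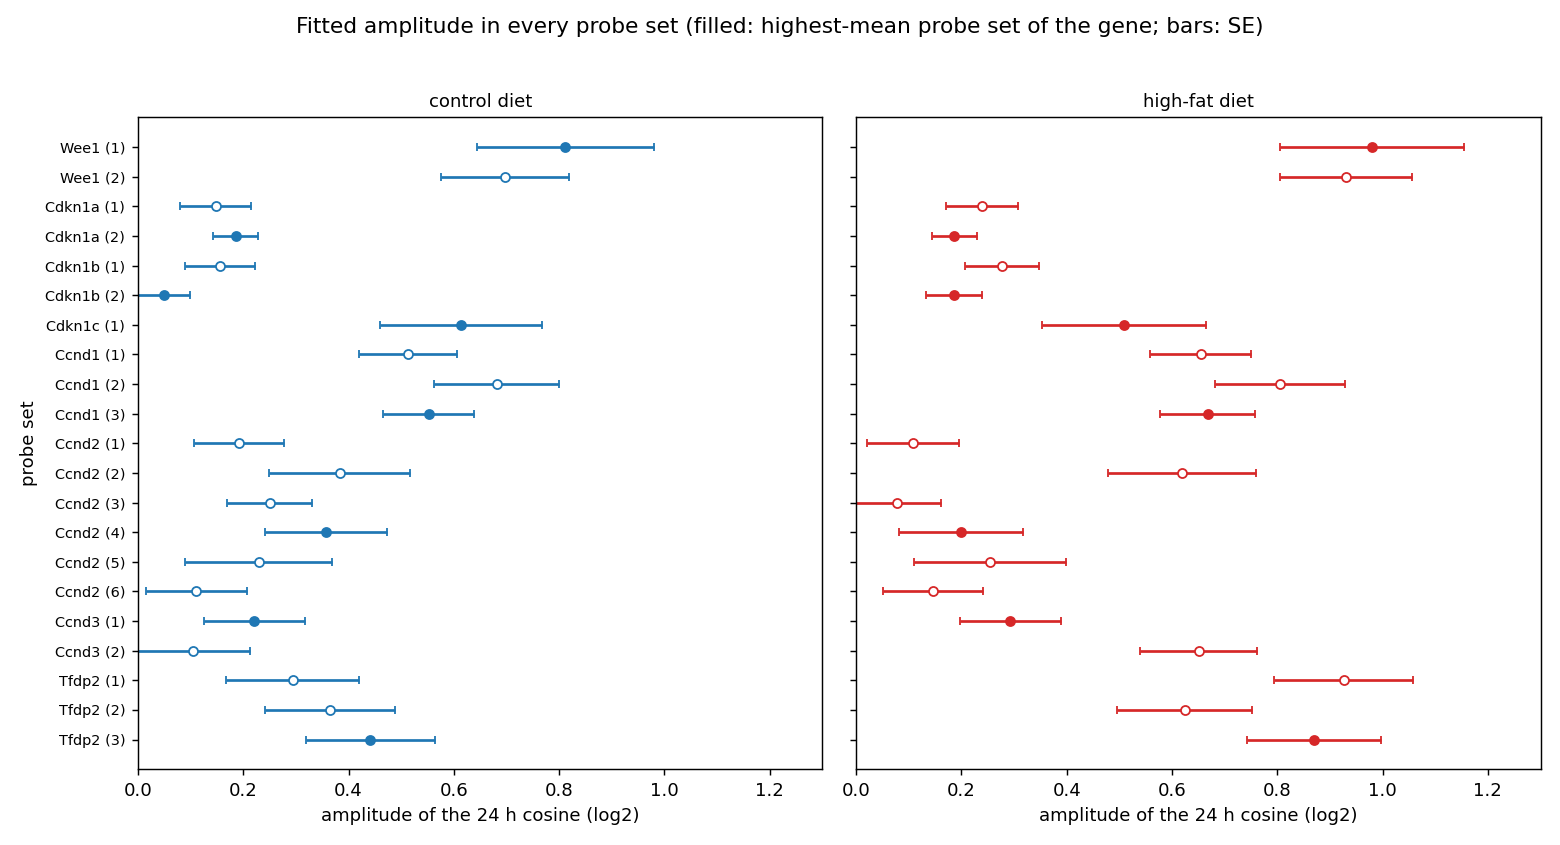
Fitted amplitude of the 24 h cosine on the log2 scale (horizontal axis, bars: SE) for each of the 21 probe sets of the 8 genes (vertical axis), control diet at left and high-fat diet at right, with filled points for the probe set used. The sets of Wee1 and of Ccnd1 lie close together, whereas the second set of Ccnd3 has a high-fat amplitude of 0.65 against 0.29 for the first.

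Tfdp2, the DP partner of E2F factors, stood out at ZT16 on the high-fat diet. Control means from ZT0 to ZT20 were 7.82, 8.01, 7.49, 8.57, 8.56 and 8.29. High-fat means were 7.12, 7.67, 8.05, 8.39, 9.57 and 7.96. The range over times was 2.11-fold in control and 5.49-fold in high-fat mice, where ZT16 was highest and ZT0 lowest. At ZT16 the control mice had values of 8.16, 8.56, 8.68 and 8.85, and the 3 high-fat mice 9.77, 9.49 and 9.45. All 3 high-fat mice were above all control mice, and above every other mouse of either diet, by 1.01 ± 0.23 at that time (2.01-fold, 95% interval 0.54 to 1.48, adjusted p = 0.00286). At ZT8 the control values were 7.59, 7.59, 7.54 and 7.24, and the high-fat values 8.35, 7.95, 8.15 and 7.75. These groups did not overlap either, and the difference of 0.56 ± 0.21 did not pass (adjusted p = 0.151), while the other probe sets had -0.49 ± 0.24 and 0.06 ± 0.22 at that time.

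At ZT0 the values of Tfdp2 were 7.87, 7.71, 7.56 and 8.16 in control and 7.26, 6.52, 7.78 and 6.91 in high-fat mice. The groups overlapped through 1 high-fat mouse, and the difference of -0.71 ± 0.21 just missed the threshold (adjusted p = 0.0547). It was called without that mouse, high-fat ZT0 replicate 3 (adjusted p = 0.0117), and without control ZT20 replicate 1 or 2 or high-fat ZT4 replicate 2 (0.0425 to 0.0436). The high-fat rhythm had an amplitude of 0.87 ± 0.13 and a peak at 14.2 ± 0.542 h (adjusted p = 1.81e-05), and it held with day as a random block (0.00059). The control rhythm was weaker, with 0.44 ± 0.12 at 16.2 ± 1.06 h (adjusted p = 0.037), and failed without any of 10 control mice (all 4 of ZT8, ZT12 replicate 2, ZT16 replicates 2, 3 and 4, and ZT20 replicates 1 and 3, adjusted p from 0.0505 to 0.075), without a filter (0.0516) and with the day block (0.208). The difference between the rhythms did not pass (adjusted p = 0.085). The interaction did (adjusted p = 0.00172), and was 0.0824 without the ZT16 mice.

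All 3 probe sets of Tfdp2 were higher on the high-fat diet at ZT16, by 1.01 ± 0.23, 1.21 ± 0.24 and 1.50 ± 0.26 (adjusted p = 0.00422, 0.000937 and 0.000212 in the fit over all named probe sets). In that fit the control rhythm passed for none of the 3 (adjusted p = 0.0521, 0.128 and 0.281). The high-fat rhythm passed for all 3 (3.61e-05, 0.00331 and 2.44e-05). With the mean of all probe sets the control rhythm did not pass either (0.0671). Klhl8 (r = 0.962), Trp53inp1 (0.929) and the transporter gene Abca6 (0.916) were most like Tfdp2 over the 12 group means. Trp53inp1, a p53 target that promotes cell cycle arrest, was higher on the high-fat diet at ZT16 by 1.61 ± 0.15 (adjusted p = 6.61e-10) and lower at ZT20 (difference -0.73 ± 0.13, adjusted p = 0.00285). Among members, Tfdp2 went with Wee1 (r = 0.679) and against Ccnd1 (-0.569) over the 12 group means, a description of shared arrays with no test.

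**Figure D5:**
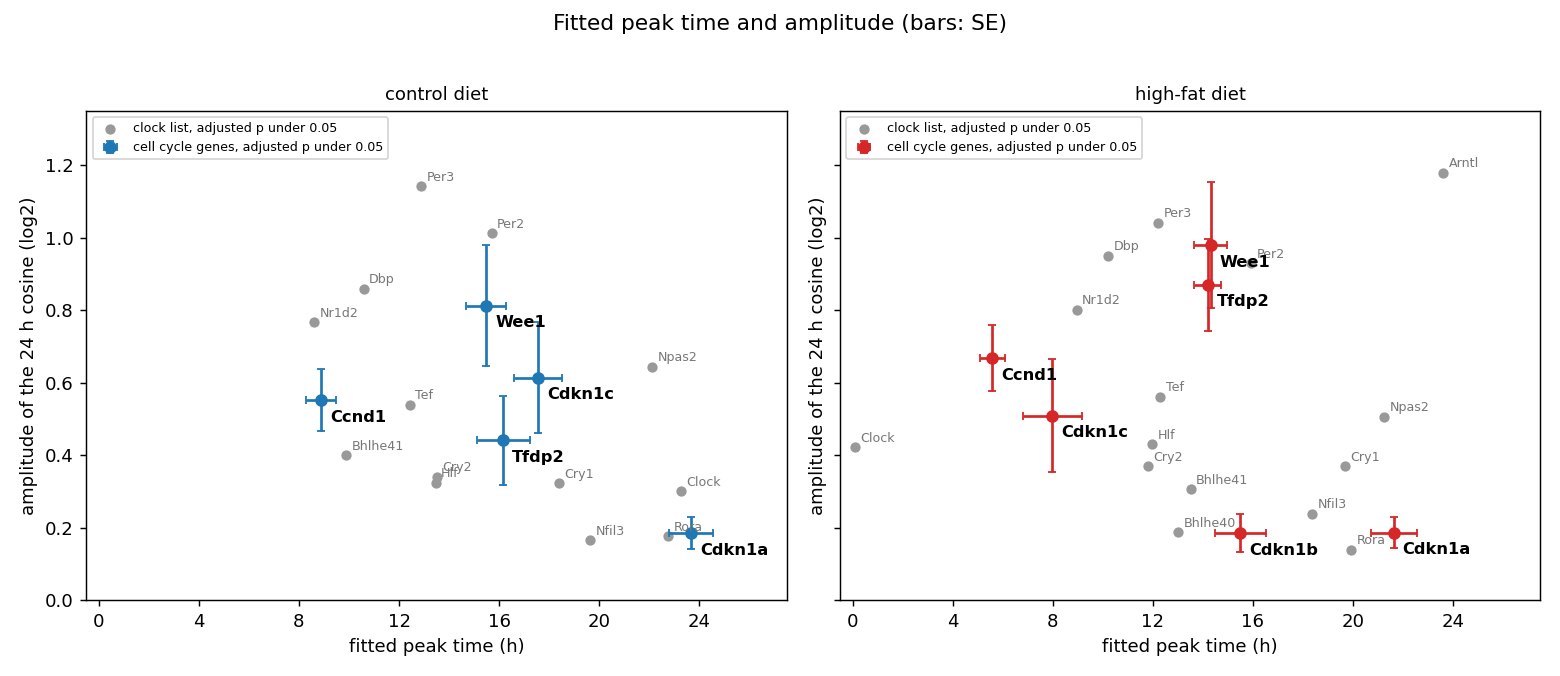
Fitted peak time in hours (horizontal axis) and amplitude of the 24 h cosine on the log2 scale (vertical axis) for the members with adjusted p under 0.05 (coloured, bars: SE) and for clock list genes with adjusted p under 0.05 (grey), by diet. Cdkn1c lies at 17.6 h in control and 7.98 h in high-fat mice, whereas Wee1 lies at 15.5 h and 14.3 h.

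Other genes of the same pathways were taken from lists, with the background shares as above. These lists, too, were chosen with earlier results of these data known. Of 25 tested cyclin, CDK and inhibitor genes (32 listed, the 8 members apart), 4 were rhythmic on the control diet (Ccng2, Ccni, Ccnl2 and Cdk4) and 9 on the high-fat diet (Ccne1, Ccng2, Ccni, Cdk2, Cdk4, Cdk6, Cdkn2c, Cks2 and Skp2). Of all genes 10.5% and 16.9% were. The median amplitudes were 0.09 and 0.19, beside 0.11 and 0.12 over all genes. On average over the day 4 were called (background 11.5%), all lower on the high-fat diet (background 6.8%). Among them were the CDK subunit genes Cks1b (-0.32 ± 0.06, adjusted p = 0.00122) and Cks2 (-0.27 ± 0.06, adjusted p = 0.00266) and the G1 cyclin Ccne1 (-0.17 ± 0.04, adjusted p = 0.00204). At ZT16, 2 were higher (Ccnl2 and Cdk8) and 2 lower (Ccne1 and Cks2). The 4 of 25 called then lay near the background of 13.3%.

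Of 11 tested retinoblastoma, E2F and DP genes (17 listed), Rb1 and its relative Rbl2 were rhythmic on the control diet, with amplitudes of 0.66 ± 0.09 (peak 19.1 h, adjusted p = 1.35e-05) and 0.33 ± 0.09 (peak 21.3 h, adjusted p = 0.028). Rbl2 alone passed on the high-fat diet (0.38 ± 0.09, peak 14.6 h, adjusted p = 0.00934), and the rhythms of both differed between diets (adjusted p = 0.0396 for Rb1 and 0.0336 for Rbl2). At ZT16 the list had 2 genes lower on the high-fat diet, Lin54 (-1.31 ± 0.31, adjusted p = 0.00421), of the DREAM complex, and the repressor E2f6 (-0.63 ± 0.18, adjusted p = 0.0186), and none higher. The 2 of 11 called then compare with 13.3% of all genes. Of 9 tested genes around WEE1 and CDC25 (12 listed), the phosphatase gene Cdc25b, whose product opposes WEE1, was rhythmic on both diets with peaks at 8.01 h and 8.59 h (amplitudes 0.39 ± 0.07 and 0.39 ± 0.07, adjusted p = 0.000785 and 0.000613), times at which Wee1 was low. Pkmyt1, the membrane-bound relative of Wee1, was lower at ZT16 on the high-fat diet (-0.38 ± 0.11, adjusted p = 0.0173), where Wee1 was higher. Pkmyt1 was the only 1 of the 9 called then, beside 13.3% of all genes.

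Of 12 tested proliferation genes (15 listed), only Mcm3 was rhythmic on the control diet (amplitude 0.27 ± 0.07, adjusted p = 0.0274) and none on the high-fat diet. Of all genes 10.5% and 16.9% were. On average over the day the replication gene Mcm7 was lower on the high-fat diet (-0.26 ± 0.08, adjusted p = 0.0371). At ZT0 the sliding clamp Pcna was lower (-0.29 ± 0.06, adjusted p = 0.00678), and at ZT16 the ribonucleotide reductase gene Rrm2 was higher (0.86 ± 0.27, adjusted p = 0.0299). These were 1 of 12 each, beside 11.5%, 3.56% and 13.3% of all genes. The counts for control rhythm, for the average and at ZT16 were thus no higher than the share over all genes. Of 17 tested clock genes (18 listed), 13 were rhythmic in control and 15 in high-fat mice, and for 1 (Bhlhe41) the rhythm differed between diets.

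Levels of marker lists, for satellite cells and for other cells, were compared between the diets at ZT16 and ZT20, where most members were called. Of all genes 13.3% were called at ZT16 and 0.819% at ZT20. Read gene by gene, the diets did not overlap for 29.1% of all genes at ZT16 and 6.33% at ZT20. The smooth muscle and pericyte list (3 of 4 genes measured, all 3 above the filter) had a mean level of 10.54 in control and 9.91 in high-fat mice at ZT16, and of 10.83 and 10.00 at ZT20. Its summed level ran from 11.56 to 12.92 in control and from 11.53 to 11.81 in high-fat mice at ZT16, and from 12.24 to 12.66 and 11.22 to 12.41 at ZT20, and none of its genes passed at either time. The endothelial list (5 of 5 measured, 3 above the filter) had means of 6.42 and 6.78 at ZT16, and 7.13 and 6.62 at ZT20. Its summed level ran from 9.58 to 9.84 in control and from 10.06 to 10.11 in high-fat mice at ZT16, without overlap. At ZT20 it ran from 9.58 to 11.33 in control and from 9.74 to 10.10 in high-fat mice, and overlapped. None of its genes passed at either time. The satellite cell list (10 of 10 measured and above the filter) had means of 9.96 and 10.01 at ZT16 and of 10.01 and 10.11 at ZT20, with Calcr, Sdc4 and Chrdl2 called at ZT16 (2 higher in high-fat mice, 1 lower) and none called at ZT20. At ZT16 its summed level overlapped. At ZT20 it ran from 13.83 to 13.93 in control and from 13.94 to 14.01 in high-fat mice, without overlap. In the committed myoblast list Myod1 was lower on the high-fat diet at ZT16, with list means of 7.92 and 7.50 and summed levels from 11.77 to 11.93 in control and from 11.05 to 11.24 in high-fat mice. The mature myofibre list (8 of 8 measured, 5 above the filter) had means of 6.34 in control and 5.97 in high-fat mice at ZT20. Its summed level ran from 9.52 to 9.87 and from 9.10 to 9.32 then, without overlap, and none was called. At ZT16 it overlapped. The fibro-adipogenic list (5 of 6 measured, 3 above the filter) did not overlap at ZT16 (11.71 to 12.08 and 12.11 to 12.17, none called). The fibro-adipogenic list overlapped at ZT20. The immune, Schwann and erythroid lists overlapped at both times, and none of their genes was called. The erythroid list (2 of 3 measured, 1 above the filter) ran from 7.69 to 11.06 in control mice at ZT20. In high-fat mice it ran from 7.57 to 8.63 then, and its tested gene Hba-a1 had a difference of -1.30. The part of these cells in the values of the 8 genes was not tested.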

How the data were processed

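RNA of satellite cells from 47 mice was hybridised to 1 array per mouse. The authors deposited log2 expression values per probe set, made with RMA per the submitters' processing notes with version and settings not given in the sources used here. RMA fits all arrays together, so levels are comparable between arrays. Of 45141 probe sets, 28898 carried 1 gene symbol, 551 several and 15692 none, and 104 control probe sets were left out. Each of 17097 genes was read from its highest-mean probe set, and the 10258 at or above the 40th percentile (5.80) were tested.

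Tests were run in R 4.3.3 with limma 3.58.1 (empirical Bayes with an intensity trend) and Benjamini-Hochberg adjustment over the 10258 genes, with a threshold of 0.05. Rhythm was tested within each diet with a 24 h cosine and sine, its difference between diets with time as a factor, and diet at each time, averaged over times and in interaction with time from the 12 group means. The fits were tested on simulated data. Mice are separate animals, 4 per group except for 3 at high-fat ZT16. Replicate numbers were not used to pair mice in the main fits. The genes described were named in full (all 8 members), with the 3 genes (5 for Wee1) most like each over the group means. The members and gene lists were chosen with earlier results of these data known. Alternatives covered the filter, the normalization, the probe sets, array weights, blocks and leaving out each mouse.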

Additional observations from a re-analysis of the deposited data

Results flagged for a closer look

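Each of the 8 genes was checked in each group of 4 mice, which gave 88 sets of 4 values. Of these sets, 7 held a mouse far from the other 3 by Dixon's criterion, where chance gives about 5% of sets. The sets share the same mice and are not independent. Wee1 was highest in control ZT12 replicate 1 (10.00, others 9.63 to 9.69), and Cdkn1b in high-fat ZT8 replicate 4 (11.19, others 10.97 to 10.99). Cdkn1c was highest in high-fat ZT8 replicate 1 (9.77, others 8.72 to 8.86), and the same mouse was the highest of its group for Tfdp2. Ccnd1 was lowest in control ZT4 replicate 3 (9.89, others 10.54 to 10.57), one of the mice without which its rhythm difference was not called. Ccnd2 was lowest in control ZT8 replicate 1 (7.30, others 7.69 to 7.77). Tfdp2 was highest in control ZT4 replicate 4 (8.38, others 7.86 to 7.92) and lowest in control ZT8 replicate 4 (7.24, others 7.54 to 7.59).

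The diets differed in daily course by tests of the difference itself. The vector difference between the fitted rhythms was 1.05 for Cdkn1c (limma, adjusted p = 0.0198) and 0.53 for Ccnd1 (adjusted p = 0.0336). The span of the diet difference over the 6 times was 2.14 for Wee1 (interaction adjusted p = 0.0062), 2.37 for Cdkn1c (0.00738), 1.55 for Ccnd1 (0.00453) and 1.72 for Tfdp2 (0.00172).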

How the results depend on the processing

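The interaction calls of the 4 members held without each mouse, as did the rhythms of Wee1, Cdkn1a and Ccnd1 on both diets, the high-fat rhythm of Tfdp2, the ZT16 differences of Wee1 and Tfdp2 and the ZT0 difference of Ccnd1. The number of arrays limits the precision, with 3 or 4 mice in each group. Members rhythmic on the control diet numbered 3 in place of 5 with the mean of all probe sets or the second-highest-mean probe set, and 2 with collection day as a random block, which left 3 in place of 6 on the high-fat diet. Rhythm differences numbered 1 in place of 2 with the replicate block, with a cosine for time in place of a factor and without the ZT16 mice, and interactions 1 in place of 4 without those mice. At ZT8 there was 1 call in place of 0 with the mean of probe sets or array weights, at ZT4 1 with median centring, and at ZT0 2 in place of 1 with array weights. At ZT20 there was 1 in place of 2 without a filter, with cyclic loess, with median centring and with the replicate block. Only the larger changes of a count are listed here, and smaller ones occurred. Without a filter, limma did not call the control rhythm of Tfdp2 (adjusted p = 0.0516) or the high-fat rhythm of Cdkn1c (0.0654). Nor did it call Cdkn1a at ZT16 (0.0522). Without single mice, the counts ran from 4 to 6 (rhythmic, on either diet), 1 to 2 (rhythm difference, average over the day, ZT0), 0 to 1 (ZT8), 2 to 4 (ZT16) and 0 to 2 (ZT20). The second probe set and the fit without the ZT16 mice were chosen after seeing the data. The cause of these changes was not tested.

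Same-numbered mice of different groups deviated together with a mean r of -0.029 over 253 pairs (24 over 0.1), other pairs with 0.0097. Most of these pairs join mice of different collection days. Pairing of same-numbered mice within a day was not tested apart. With the replicate block the Ccnd1 rhythm difference (adjusted p = 0.0502), Cdkn1a at ZT16 (0.0541) and Wee1 at ZT20 (0.0607) were not called, and no other call of a member changed.

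Reversals of direction all concerned differences that were not called. With the mean of probe sets these were Cdkn1b (-0.0241), Ccnd2 (-0.0039) and Tfdp2 (-0.0109) on average, Wee1 (-0.0658) and Ccnd2 (0.142) at ZT0, Cdkn1b at ZT4 (-0.0963), Ccnd2 (0.105) and Ccnd3 (0.196) at ZT12 and Cdkn1b at ZT20 (-0.0256). Ccnd2 at ZT0 was 0.0147 with cyclic loess and 0.0125 with median centring. Array weights gave -0.0297 for Tfdp2 on average and -0.0092 for Cdkn1b at ZT20, and the replicate block -0.0022 for Tfdp2 on average. Without the ZT16 mice the averages were -0.106 for Wee1, -0.0199 for Cdkn1b, -0.0701 for Ccnd2 and -0.20 for Tfdp2. Without single mice the ranges crossing 0 were -0.0128 to 0.0671 (Ccnd2) and -0.0356 to 0.0345 (Tfdp2) on average, -0.0933 to 0.31 (Wee1) and -0.138 to 0.135 (Ccnd2) at ZT0, -0.0189 to 0.187 (Cdkn1b), -0.0826 to 0.0242 (Ccnd2) and -0.167 to 0.103 (Ccnd3) at ZT4, -0.0191 to 0.264 (Ccnd2) at ZT8, -0.0676 to 0.0785 (Wee1), -0.023 to 0.083 (Cdkn1a), -0.184 to 0.161 (Ccnd2) and -0.168 to 0.133 (Ccnd3) at ZT12, and -0.0589 to 0.072 (Cdkn1b) at ZT20.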
